A study of Mus musculus with 16 samples.

Results

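The m6A peaks on transcripts that rose with LPS were examined in the methylated RNA immunoprecipitation sequencing (MeRIP-seq) of thioglycolate-elicited mouse peritoneal macrophages (PMs). A peak, a stretch of transcript where reads piled up, was taken as LPS-raised when its input library level averaged at least 5 CPM (reads scaled to the library total) over the 4 LPS input libraries and more than 2 times its average over the 4 mock input libraries. Of 7069 distinct peaks, 761 (10.8%) met this rule, 668 of them annotated to 1 gene and 93 to more than 1, and they lay on 390 genes.

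PMs came from WT mice and from Adap-/- mice, both of the C57BL/6 background. The animals were sex-matched littermates aged 6 to 8 weeks. Cultures were mock-treated or given 1 µg/ml LPS for 6 h, in 2 replicates for each of the 4 groups. Each of the 8 cultures gave fragmented RNA that was sequenced before (input) and after (IP) capture with an m6A antibody, 16 libraries in all. In Adap-/- mice every cell, not the macrophage alone, lacks ADAP, an adaptor protein of immune cells that the gene Fyb1 encodes. As a check on the labels, the input peaks of Fyb1 summed to 45.5 to 69.0 normalised CPM in the 4 Adap-/- input libraries and to 369 to 488 in the 4 WT ones. The labels do not say whether replicates came from separate animals or dishes, so p-values measure the spread between these libraries.

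m6A is the most common internal mark of mRNA. A methyltransferase complex built around METTL3 and METTL14 places it, chiefly near stop codons and in long internal exons, and reader proteins that bind it alter the decay and translation of the transcript. LPS, a component of the outer membrane of gram-negative bacteria, is sensed through TLR4, which switches on NF-κB and MAP kinase targets such as cytokines and chemokines, and through IRF3 and interferon-β a large set of interferon-stimulated genes (ISGs). Many of these transcripts are unstable, and their decay limits inflammation.

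Short stretches of promoter show examples of the recognition letters, taken from genes in which they were found. Each is printed 5′ to 3′ on the strand of the gene, with the matched letters in capitals and the coordinates of the RefSeq table (build GRCm38.p6). The first 3 are ISGs, with the letters searched for the interferon-stimulated response element, and the last 2 are a chemokine and a cytokine, with those searched for NF-κB.
Rsad2, chr12:26456553-26456582 (minus strand): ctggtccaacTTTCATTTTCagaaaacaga
Ifit3, chr19:34583363-34583392 (plus strand): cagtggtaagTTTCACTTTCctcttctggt
Gbp2, chr3:142620594-142620623 (plus strand): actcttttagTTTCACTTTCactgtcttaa
Cxcl2, chr5:90903792-90903821 (plus strand): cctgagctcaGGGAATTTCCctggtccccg
Il6, chr5:30013060-30013089 (plus strand): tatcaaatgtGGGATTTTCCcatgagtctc
These matches began 120, 156, 59, 97 and 44 bases before the gene start, in that order. In the window from 250 bases before to 50 after the start, the letters GAAA, any 2 bases and GAAA again, read on either strand, were found in 26 of the 46 promoters (56.5%) listed for the 41 of 51 LPS-raised ISGs that matched the table, and in 3.44% of all 32851 promoters. The NF-κB letters searched were GGG, any 2 bases and TTTCC, read on either strand. Other genes searched, among them Tnf, Il1b, Nos2, Ptgs2, Ifit2 and Cmpk2, gave no stretch, for lack of the letters or of a listed promoter. Shares over the cytokines and chemokines and over all genes with an LPS-raised peak are not given, since 19 of 28 and 265 of 390 genes (67.9% of each) matched the promoter table, too few for a check. A match is a description of the letters and not evidence of binding.

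The LPS-raised peaks were longer than the rest. Their median LPS input was 144 CPM against 16.7 CPM for the other 6308 peaks, a gap that the rule itself favours, since it sets a minimum on this input. Their median span was 250 against 175 bases. A span of over 1000 bases, introns included, was found for 126 of them (16.6%) and for 6.69% of the other peaks. By the annotation of the deposited table, 214 lay at a stop codon (28.1%, against 33.3% of the other peaks), 262 in coding sequence (34.4% against 31.4%), 120 in a 3'UTR (15.8% against 16.1%) and 109 at a start codon (14.3% against 13.5%), whereas 20 covered both start and stop codon (2.63% against 0.983%). One LPS-raised peak was found on 175 genes, 2 on 111 and 3 or more on 104, up to 11 on the ubiquitin ligase gene Rnf213, and 79 of the 390 genes also had a peak that did not meet the rule. Peaks of 1 gene share a transcript and are not independent.

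The rise that chose them is described here without a test. The median rise was 6.57-fold, with 279 peaks raised 2- to 4-fold, 271 raised 4- to 16-fold and 211 more than 16-fold, and 6 peaks had no mock input read. The rule was met in WT cultures alone by 730 peaks, in Adap-/- cultures alone by 712, and in both by 681. Just inside the threshold were the LPS co-receptor gene Cd14, at 2046 CPM after LPS and 1021 in mock, and Ifi207, an interferon-inducible gene, at 279 and 139 CPM (2.01-fold). Just outside was the NF-κB subunit gene Rel, at 40.1 and 20.1 CPM (1.99-fold). With CPM scaled by TMM in place of raw CPM, 1383 peaks would have met the rule, including the 761.

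LPS-raised peaks took up 54.1% to 55.8% of all reads in the 4 LPS input libraries, and 4.99% to 7.66% in the 4 mock input libraries. In the LPS IP libraries the share was 34.1% to 35.7%, below every LPS input library. The mock IP libraries were split. The share was 5.09% in WT mock replicate 2 and 7.14% in Adap-/- mock replicate 1, but 21.6% in WT mock replicate 1 and 21.2% in Adap-/- mock replicate 2, more than 2 times any mock input library, and these 2 IP libraries stand apart from their groups. No comparison between genotypes below uses a ratio from the mock cultures, but the fits over 16 libraries draw their spread from all of them, so counts are also given without these 2 cultures. Total reads on peaks were 2121313 to 4325961 per input library and 5728590 to 19030373 per IP library, and what follows is precise only to this counting and to 2 replicates, since PCR copies were not marked.

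**Figure D1:**
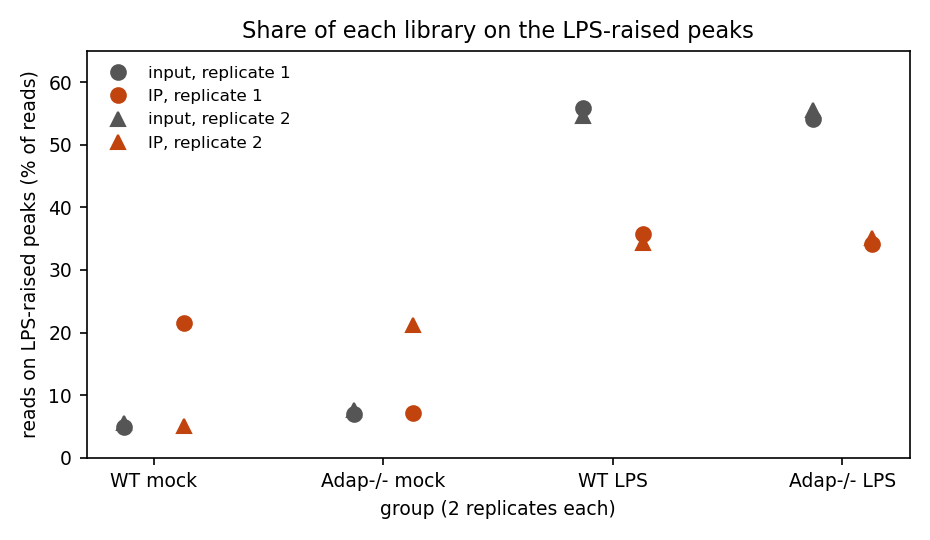
Share of the reads of each library (%) that fell on the 761 LPS-raised peaks, for input (grey) and IP (orange) libraries of the 4 groups, circles for replicate 1 and triangles for replicate 2. LPS inputs lie at 54.1% to 55.8% and LPS IPs at 34.1% to 35.7%, and of the mock IPs, WT replicate 1 (21.6%) and Adap-/- replicate 2 (21.2%) lie far above the other two.

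Markers fixed for other cell types were nearly absent from the table. Of 8 macrophage markers 7 had a peak, all but Itgam, and their summed LPS input was 8850 to 10577 normalised CPM per culture. Neutrophil markers were represented by Csf3r alone (400 to 493 CPM; 1 of 9 genes), and fibroblast or mesothelial markers by Pdgfra alone (46.0 to 92.6 CPM; 1 of 7). No marker of B cells, T cells, mast cells or eosinophils had a peak. The table lists only transcripts with a peak, so absence from it is not absence of the RNA.

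LPS-raised peaks held fewer IP reads than other peaks, relative to their input reads. The measure is the IP-to-input ratio, the TMM-scaled CPM of a peak in the IP over that in the input of the same culture, so that 1 is about the average peak. The LPS input that chose the peaks is the denominator of this ratio, so the ratio is a description and carries no test. The median log2 ratio over the 761 peaks was −0.81 and −0.78 in the WT LPS replicates and −0.72 and −0.75 in the Adap-/- LPS replicates. Its mean was −0.79 ± 0.03 (SD, n = 2) in WT and −0.73 ± 0.02 (SD, n = 2) in Adap-/- PMs. In all 4 cultures it was below that of the 4996 other peaks with an LPS input of at least 5 CPM, which was −0.03 to −0.06. The middle of the LPS-raised peaks, on the linear scale, was therefore 0.600 of the average peak. The zero of this scale depends on the normalization. With raw library totals the medians of LPS-raised and all other peaks, averaged over the 4 cultures, were 0.00197 and 0.88 in place of −0.76 and 0.11. The difference was −0.87 with both. Such scaling moves every peak of a culture by the same amount, so this difference could not change and is no check. With a pseudocount of 2 reads the medians were −0.77 and 0.06, and the difference was −0.83. When LPS-raised peaks were chosen on WT input alone, their median log2 ratio in the Adap-/- cultures, whose libraries had no part in the choice, was −0.72. All 761 LPS-raised peaks had more input after LPS in each genotype, and Adap-/- input is the denominator here. This choice is therefore no independent check.

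LPS-raised peaks spread over a wider range of ratios than the rest, with a group far below. A ratio below 0.5 in all 4 LPS cultures was found for 244 of them (32.1%), for 5.23% of all 7069 peaks, and for 116 of the 4996 other peaks (2.32%). A ratio above 2 in all 4 was found for 14 (1.84%), against 5.39% of all peaks and 200 of those 4996. Between mean log2 ratios of −4.5 and −3 lay 27, 44 and 32 LPS-raised peaks in successive steps of 0.5, and 106, 140 and 147 lay between −1.5 and 0. The values repeated between cultures. Across the 761 peaks, which share libraries and in part transcripts, the log2 ratios of the WT replicates correlated with r = 0.964, those of the Adap-/- replicates with r = 0.881, and the means of the genotypes with r = 0.947.

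**Figure D2:**
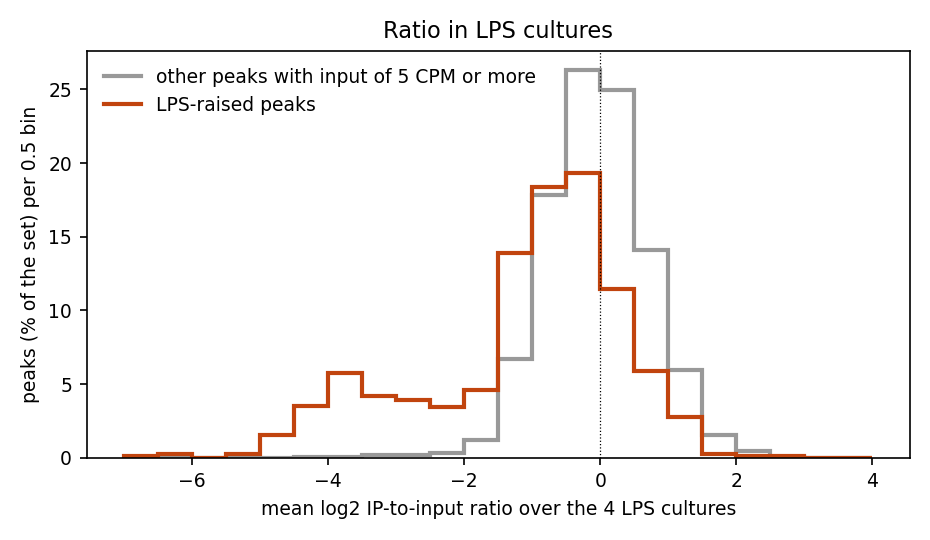
Distribution of the mean log2 IP-to-input ratio over the 4 LPS cultures, as percent of each set per bin of 0.5, for the 761 LPS-raised peaks (orange) and the 4996 other peaks with at least 5 CPM of LPS input (grey). Both peak near 0, but the LPS-raised peaks have a second rise around −4 to −3.5, where 44 of them (5.78%) and 2 of the other peaks lie.

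The ratio was lower the more abundant and the more strongly raised a transcript was. Among LPS-raised peaks with 5 to 20 CPM of LPS input the median log2 ratio was 0.04 (n = 99), close to the 0.18 of other peaks of that level. It was −0.46 at 20 to 100 CPM (n = 213), −1.02 at 100 to 500 CPM (n = 275) and −1.80 above 500 CPM (n = 174), where other peaks of like input had −0.25, −0.53 and −0.53. Abundant peaks thus lay below the average peak in both sets, and the gap between the sets was wider at each higher level. By size of the rise, the median was −0.41 at 2- to 4-fold, −0.75 at 4- to 16-fold and −2.14 above 16-fold, and a ratio below 0.5 in all 4 cultures was found for 27 of 279, 90 of 271 and 127 of 211 peaks (60.2%). As a description across peaks, log2 input and log2 ratio correlated with r = −0.438 (n = 761) in the LPS-raised set and −0.350 (n = 4996) in the other. Input is the denominator of the ratio, and its part in these relations was not tested.

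**Figure D3:**
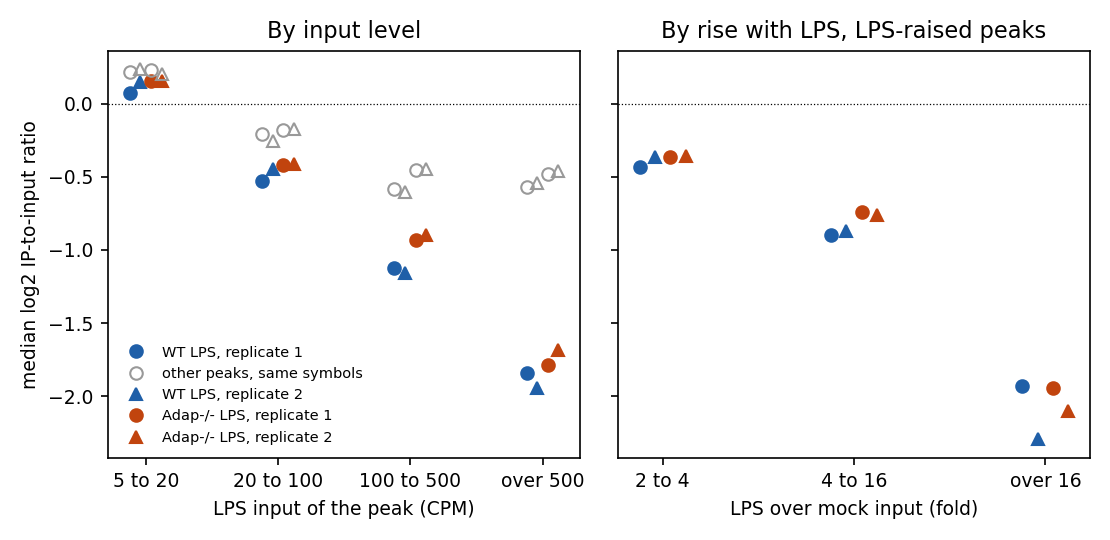
Median log2 IP-to-input ratio per LPS culture, left by the LPS input of the peak (CPM) for LPS-raised (filled) and other peaks (open grey), right by the rise of LPS over mock input for the LPS-raised peaks. Blue is WT, orange is Adap-/-, circles and triangles are replicates 1 and 2. In all 4 cultures the LPS-raised peaks fall from near 0 at 5 to 20 CPM to below −1.5 above 500 CPM, and from above −0.5 to about −2 with the rise.

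A larger share of the long peaks than of the short ones was in the low group. The 126 LPS-raised peaks over 1000 bases had a median log2 ratio of −2.48, and 85 of them (67.5%) had a ratio below 0.5 in all 4 cultures. Other peaks over 1000 bases had a median of −0.06. The 635 LPS-raised peaks up to 1000 bases still had a median of −0.62 with 159 in the low group. By position, the median was −0.62 at stop codons (other peaks −0.02), −0.85 in coding sequence (0.05), −0.73 in the 3'UTR (−0.23) and −2.58 for peaks that covered both start and stop codon (−0.29). In each of these positions the LPS-raised peaks had the lower median.

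The mock IP libraries that stand apart were high on the LPS-raised peaks at large, the low-ratio ones included. Over all 761 the median log2 ratio was 1.69 in WT mock replicate 1 and 1.15 in Adap-/- mock replicate 2, against −0.42 and −0.22 in the other mock cultures. The median log2 ratio of the 244 in the mock cultures was 2.95 in WT replicate 1 and 2.15 in Adap-/- replicate 2, but −1.11 in WT replicate 2 and −0.85 in Adap-/- replicate 1. A ratio above 2 in both of the first was found for 188 of the 244 (77.0%), for 384 of all 761 LPS-raised peaks (50.5%) and for 332 of the 6308 other peaks (5.26%). In both of the others it was found for 16, 46 and 702. For Tnf the 4 mock ratios were 19.8, 13.4, 0.826 and 1.51 in that order, against 0.172 to 0.226 in the LPS cultures. Whether reads of these 2 libraries helped to define the peaks was not tested. Transcripts that LPS lowered gave another comparison. It used 84 peaks with a mock input of at least 20 CPM that fell more than 16-fold in raw input CPM. In TMM-scaled CPM they kept 6.54% to 7.60% of their mock input level in the LPS inputs, a level that the choice itself keeps low. Their LPS IP level was 13.6% and 8.86% of the mock input level in WT and 4.20% and 4.36% in Adap-/- PMs.

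Tested against input in the fit over 16 libraries, 46 of the 761 peaks were higher in the IP (6.04%; 23.2% of all peaks tested) and 292 lower (38.4%; 21.9% of all peaks), at an adjusted p below 0.05 from edgeR. The rule used the input of this contrast, so nothing is read from these counts beyond the description above. With TMM within IP and within input libraries the split was 99 higher and 200 lower. Without the 2 mock cultures whose IP stands apart it was 81 and 491. Leaving out any 1 LPS culture moved the lower count by more than 1.5 times, to 138 and 77 without WT replicate 1 or 2 and to 112 and 158 without Adap-/- replicate 1 or 2.

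Cytokine and chemokine transcripts were among the most abundant, and 24 of 43 cytokine and 11 of 13 chemokine peaks were in the low group. The peak of Tnf, the central pro-inflammatory cytokine, covers the gene on chromosome 17 from 35418356 to 35420983 (coordinates here and below as in the deposited table), and was the most abundant LPS-raised peak, with a mean of 32367 CPM after LPS against 634 in mock. Its ratio was 0.196 and 0.172 in WT and 0.197 and 0.226 in Adap-/- LPS replicates, so that the genotypes did not overlap but the higher WT and the lower Adap-/- value lay next to each other. Il1b, which encodes the inflammasome-processed cytokine IL-1β, had ratios of 0.121, 0.0872, 0.107 and 0.133 on its stop codon peak (chromosome 2, 129206489 to 129211655), in the same order of replicates. For Cxcl2, a neutrophil attractant, they were 0.0743, 0.0395, 0.0436 and 0.0735 on the 3'UTR peak (chromosome 5, 91052963 to 91053788). Each of these 3 peaks thus stayed at or below 0.226 of the average peak in all 4 cultures.

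Of 29 listed cytokine and growth factor genes, 18 had an LPS-raised peak, with a median log2 ratio of −2.16 over their peaks. Above the average peak were, among others, Lif, a cytokine of the IL-6 family (log2 ratio 0.84), Tnfsf10, which encodes the death ligand TRAIL (1.20), and Csf1, the macrophage growth factor (0.25 and 0.46). Of 19 chemokine genes, 10 had an LPS-raised peak, with a median of −3.06. They included Ccl3 (−2.83), Ccl5 (−3.06), Cxcl1 (−3.17) and Cxcl10 (−3.61 on a peak shared with Art3). Over all 761 peaks the median was −0.74.

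ISGs had the most LPS-raised peaks of the lists. Of 57 listed ISGs, 51 had an LPS-raised peak, 145 peaks in all, with a median log2 ratio of −1.15, 68 peaks in the low group and 2 above a ratio of 2 in all 4 cultures. Rsad2, which encodes the antiviral enzyme viperin, had ratios of 0.154 and 0.118 in WT and 0.157 and 0.181 in Adap-/- PMs on its larger peak (chromosome 12, 26492744 to 26502058). Ifit2, an interferon-induced RNA-binding protein gene, had 0.451, 0.440, 0.502 and 0.458 on a peak over its whole coding sequence. All 6 peaks of Irf7, the transcription factor that amplifies interferon production, were in the low group, with log2 ratios from −4.10 to −3.38. At the other end stood Ifit3b (chromosome 19, 34590026 to 34590426), whose stop codon peak had the highest ratio of all LPS-raised peaks ranked, 4.28 and 5.46 in WT and 6.00 and 9.70 in Adap-/- PMs. Ifit3b is nearly identical to Ifit3, and reads may have been split between them in a way the table does not show.

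Effector enzymes had low ratios on most of their peaks. Of 48 listed effector, metabolic and secreted defence genes, 17 had an LPS-raised peak, and their 44 peaks had a median log2 ratio of −2.65, with 31 in the low group. All 10 peaks of Nos2 (inducible nitric oxide synthase), all 3 of Ptgs2 (cyclooxygenase 2) and all 3 of Acod1 (which makes itaconate) belonged to it. Ptgs2 had ratios of 0.0693, 0.0138, 0.0199 and 0.0610 on a 3'UTR peak (chromosome 1, 149982248 to 149983073). Acod1, more abundant with a mean of 16411 CPM, had 0.417, 0.413, 0.495 and 0.478 on its stop codon peak. The iron and zinc carrier gene Slc39a14 was the one gene of this list above the average peak (log2 ratio 0.99).

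By their medians, regulators of the response lay closer to the average. The 26 peaks of 13 NF-κB regulators and feedback inhibitors had a median log2 ratio of −0.50, with 5 in the low group and a lowest value of −3.87. For the 36 of 17 receptors and surface proteins it was −0.54, with 9 in the low group. For the 22 of 9 pattern recognition and cell death genes it was −0.25, with 1. The 10 peaks of 5 MAP kinase feedback and mRNA decay genes had −0.32, none in the low group, and the 26 peaks of 9 transcription factor genes −0.06. Tnfaip3 (A20), which shuts off NF-κB, had ratios of 1.00 and 1.10 in WT and 1.34 and 1.35 in Adap-/- PMs on a coding peak. Of the 5 transcription factor peaks in the low group 4 were on Irf1, an interferon-induced activator, and 1 on Batf2, and Irf1 had 0.106, 0.0491, 0.0614 and 0.0995 on its stop codon peak. None of the 21 listed m6A writers, erasers and readers had an LPS-raised peak, although 12 had a peak.

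Among peaks with 1 gene and at least 20 reads in each LPS input library, the lowest ratios were those of Csf3, Ch25h, Edn1, Tnfsf15, Trim30c, Oas3, Ptgs2, Nos2, Gbp7 and Il15. The stop codon peak of Csf3 (G-CSF, which drives neutrophil production) had 16 and 7 IP reads in WT and 0 and 91 in Adap-/- LPS replicates, against 155 and 117, and 260 and 264, input reads. Ch25h (cholesterol 25-hydroxylase) and Edn1 (endothelin 1) also had 0 reads in Adap-/- LPS IP replicate 1. A count of 0 there allows ratios of up to 0.00158 for Csf3, 0.00217 for Ch25h and 0.00173 for Edn1 by counting error alone, so these 3 have no order. They were the only ones among 668 LPS-raised peaks with at least 50 reads in each LPS input library to have no read in an LPS IP library.

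The highest ratios belonged to Ifit3b, Pou3f1, Trim56, Pde4b, Aldh1b1, Nod2, Gvin1, ENSMUSG00000079505, Helz2 and Adora2b. Pou3f1, a POU-domain transcription factor, had ratios of 3.21 and 3.47 in WT and 6.62 and 4.93 in Adap-/- PMs at its stop codon, on an input of 10.7 to 33.8 CPM. Pde4b, the cyclic AMP phosphodiesterase of macrophages, had 2.65, 2.90, 3.02 and 2.33. Nod2, the sensor of bacterial muramyl dipeptide, had 2.19, 2.79, 3.02 and 2.64. Both Adap-/- replicates were above both WT replicates for Ifit3b, Pou3f1, Gvin1 and Helz2 and below them for Aldh1b1, and the genotypes overlapped for the other 5. Gvin1 has close paralogs and an input under 26 CPM, so its ratio is uncertain.

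**Figure D4:**
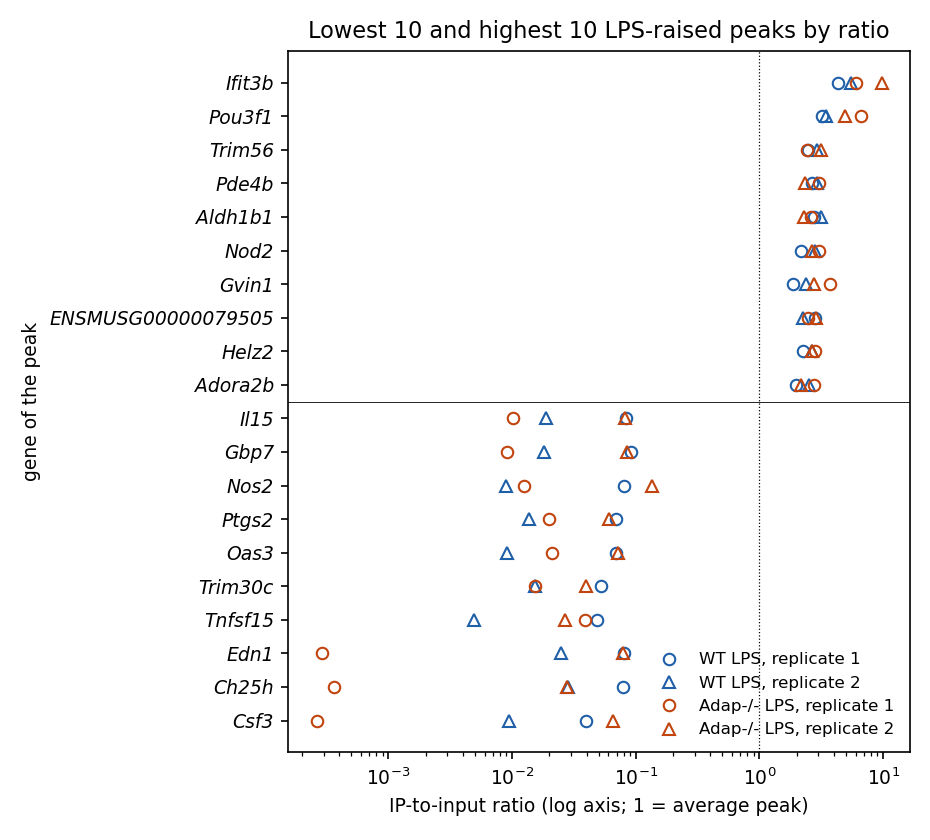
IP-to-input ratio (log axis) in each of the 4 LPS cultures of the 10 highest and the 10 lowest LPS-raised peaks by mean log2 ratio, 1 peak per gene. Blue is WT, orange Adap-/-, circles and triangles replicates 1 and 2, and the dotted line is the average peak. The highest run from 1.88 to 9.70 and the lowest lie at 0.134 or below, where the 3 points below 0.001 (Csf3, Ch25h, Edn1) are 0 reads plotted with a pseudocount of 0.5 reads.

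Within 1 gene, ratios could differ as widely as between genes. Of 153 genes with at least 2 LPS-raised peaks of 20 reads or more in each LPS input, the median range of log2 ratio between their peaks was 1.26, and in 42 it exceeded 2. Gbp7, an interferon-induced GTPase gene with 9 such peaks on chromosome 3, had its lowest ratios in coding sequence (0.0913 and 0.0181 in WT and 0.00917 and 0.0854 in Adap-/- PMs) and rose along the transcript to 1.32, 1.48, 1.47 and 1.32 in the 3'UTR between 142253321 and 142254071, before it fell to 0.0618, 0.0467, 0.131 and 0.0887 in the next peak. Normalised input was 265 to 317 CPM in the first of these, 1134 to 1326 in the high one and 215 to 253 in the last, so the peak with the highest ratio also had the most input. Gbp7 belongs to a family of near copies, so part of its reads may be shared. Tnfsf15, a TNF family ligand, kept log2 ratios of −1.22 to −0.32 over 5 peaks at and just after its stop codon, and −5.48 to −4.44 over 4 peaks farther along its 3'UTR. Ch25h had ratios of 0.552 to 0.920 at its stop codon and of 0.0794 or less in the coding sequence.

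Il6, which encodes the acute-phase cytokine IL-6, showed the same in 3 peaks. Its start codon peak (chromosome 5, 30218346 to 30218396) had ratios of 0.846 and 1.19 in WT and 1.02 and 0.776 in Adap-/- PMs, near the average peak, on 34 to 90 input reads. On the stop codon peak the ratios were 0.0968, 0.0584, 0.0770 and 0.0995, and on the 3'UTR peak 0.109, 0.0746, 0.104 and 0.125. The low values thus came from the 2 peaks that held nearly all the Il6 input. Il1b had ratios of 0.560 to 0.671 on a second peak at its start codon, shared with ENSMUSG00000074805 on the other strand, and since the strand setting of the counting is not given in the sources used here, the 2 genes cannot be separated there.

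The comparison between genotypes asked whether loss of ADAP altered m6A on LPS-raised transcripts. After LPS, the ratio of no LPS-raised peak was called different in Adap-/- PMs at an adjusted p below 0.05 (edgeR over 16 libraries; 0.0142% of all 7058 peaks tested). With the looser pair of limits, a log2 change of over 1 in size and p under 0.05 before adjustment, the edgeR count was 0 too, where 1.32% of all peaks passed higher and 2.82% lower, and 2 of the 761 had an unadjusted p below 0.05 at any size, against 7.13% of all peaks. For Tnf the log2 difference was 0.20 with a SE of 1.56, so that differences of severalfold in either direction could not have been seen in this fit. The biological coefficient of variation was 30.6% over 16 libraries and 22.8% over the 8 LPS libraries. With the 8 LPS libraries alone, edgeR called none at an adjusted p below 0.05, and 12 passed the unadjusted thresholds higher (1.58%; 1.74% of all peaks) and 7 lower (0.920%; 2.46% of all peaks).

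DESeq2 on the 8 LPS libraries, added after the data were seen, called 8 LPS-raised peaks with a higher ratio in Adap-/- PMs (1.05%; 0.453% of all peaks) and 1 with a lower one (0.131%; 0.411% of all peaks). Socs1, the feedback inhibitor of cytokine receptor signalling, had ratios of 0.0553 and 0.0508 in WT and 0.107 and 0.152 in Adap-/- PMs at its stop codon (chromosome 16, 10601728 to 10601903), without overlap. Its log2 difference was 1.30 (SE 0.32, adjusted p = 0.0113, DESeq2). Gdf15, a stress-induced cytokine, had 0.835 and 1.04 against 1.70 and 1.75 (0.91, SE 0.23, adjusted p = 0.0142, DESeq2), and here the IP libraries held 19440 to 105629 reads. Hivep3, a zinc finger transcription factor, had 1.12 and 1.20 against 2.24 and 2.65 (1.08, SE 0.29, adjusted p = 0.0348, DESeq2). The other calls were 2 peaks of the GTPase activator gene Tagap, shared with ENSMUSG00000090069 (1.37 and 0.90), and peaks of the paralog families of Ifi206 (1.52), Gvin1 (1.12) and Gvin2 (1.07), with H2-M2 lower (−1.39). These 9 rest on 1 tool and were not called by edgeR. Socs1 had 4 LPS-raised peaks, Hivep3 6 and Ifi206 8, and on each of these genes only 1 was called.

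The ratios of LPS-raised peaks lay slightly higher in Adap-/- than in WT cultures. Both Adap-/- replicates were above both WT replicates for 258 of the 761 peaks (33.9%; 23.6% of all peaks), and below for 100 (13.1%; 22.7% of all peaks). The median fitted log2 difference was 0.14, against 0.01 over all peaks. The median fitted log2 difference of input on the LPS-raised peaks was −0.15, and input is the denominator of the ratio. These are descriptions without a test, and the part of input in the shift was not tested. No peak of Spry1 or Cd300lb met the rule for LPS-raised peaks. This does not show that LPS left their RNA unchanged. Cish, a further feedback inhibitor, had ratios of 0.684 and 0.690 in WT and 1.49 and 1.57 in Adap-/- PMs at its stop codon, on a peak shared with ENSMUSG00000090570 and not called.

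The level of the transcripts was called different between genotypes on many LPS-raised peaks. The biological coefficient of variation was 8.92% in the fit of input, against 30.6% in the fit over 16 libraries used for the ratio. These fits differ in what they can detect, so fewer calls on the ratio do not show that it was level. In the fit of the 8 input libraries, 94 of the 761 were higher in Adap-/- than in WT PMs after LPS (12.4%; 4.97% of all 6794 peaks tested) and 176 were lower (23.1%; 9.18% of all peaks), at an adjusted p below 0.05 from edgeR. They lay on 64 genes with higher and 102 with lower peaks, and no gene had both. The median log2 difference was −0.15, against −0.01 over all peaks. Without Adap-/- LPS replicate 2 the counts were 54 and 90, and without WT LPS replicate 1 or 2 the lower count was 112 or 115. In bulk libraries, fewer cells of a type and less RNA per cell cannot be told apart.

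Among ISGs, calls went one way. Of 145 ISG peaks 52 were called lower without ADAP, on 27 of 51 genes, where 9.18% of all tested peaks were, 0 were called higher, where 4.97% of all were, and the other 93 did not pass. All peaks of the listed ISGs together summed to 394388 and 390056 normalised CPM in the WT LPS replicates and to 268110 and 254936 in the Adap-/- ones. Rsad2 had 63600 and 61869 normalised input CPM in WT and 30680 and 30113 in Adap-/- PMs, without overlap (log2 fold change −1.05, standard error (SE) 0.13, adjusted p = 3.09e-05, edgeR). Its neighbour Cmpk2, a mitochondrial nucleotide kinase gene, had 27490 and 27689 against 10528 and 10282 (−1.42, SE 0.13, adjusted p = 2.22e-06, edgeR). Ifit2 had 31906 and 34818 against 17906 and 16978 (−0.94, SE 0.17, adjusted p = 0.000864, edgeR). Both WT replicates exceeded both Adap-/- replicates in each of these. For Irf7 5 of 6 peaks were lower and for Cmpk2, Rsad2 and Ifit3b all of theirs. The guanylate-binding protein genes did not pass: Gbp2 had −0.31 (adjusted p = 0.319, edgeR) and Gbp3 −0.26 (adjusted p = 0.435, edgeR), and the median over 9 peaks of Gbp7 was 0.15.

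NF-κB-driven chemokines and cytokines split. Cxcl3, like Cxcl1 and Cxcl2 a neutrophil attractant, had 2568 and 1844 normalised input CPM in WT and 7049 and 9296 in Adap-/- PMs, without overlap (log2 fold change 1.88, SE 0.16, adjusted p = 8.11e-07, edgeR). Cxcl2 had 14720 and 9539 against 21852 and 29260 on its 3'UTR peak (1.07, SE 0.19, adjusted p = 0.000707, edgeR). Il1b had 7756 and 5290 against 11147 and 17419 on its stop codon peak (1.12, SE 0.18, adjusted p = 0.000409, edgeR). In all 3 the lowest Adap-/- replicate was above the highest WT one. Cxcl1 (0.82, adjusted p = 0.0102, edgeR) and Il1a (0.72 on a peak shared with ENSMUSG00000085498, adjusted p = 0.00434, edgeR) were called as well, but lost the call without WT LPS replicate 2 (adjusted p = 0.148 and 0.0779, edgeR) and without Adap-/- LPS replicate 2 (0.228 and 0.110, edgeR). Over all 761 LPS-raised peaks 12.4% were called higher and 23.1% lower, against 4.97% and 9.18% of all peaks tested. Of 43 cytokine peaks 12 were higher and 8 lower, on 7 and 4 genes, and of 13 chemokine peaks 4 and 4, on 3 and 4 genes. The lower ones included Il1rn, the natural antagonist of IL-1, with 2860 and 3195 CPM in WT against 1482 and 1163 in Adap-/- PMs (−1.20, SE 0.12, adjusted p = 3.90e-06, edgeR), and the monocyte attractants Ccl2, on a peak shared with ENSMUSG00000092157 (−0.75, adjusted p = 0.00137, edgeR), and Ccl7 (−0.63, adjusted p = 0.00480, edgeR).

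For Tnf and Il6 the input did not differ at the threshold. Tnf had 52359 and 39512 normalised input CPM in WT and 52807 and 67406 in Adap-/- PMs, with the higher WT value just below the lower Adap-/- one (log2 fold change 0.38, SE 0.16, adjusted p = 0.117, edgeR). Without WT LPS replicate 1 Tnf would have been called (0.59, adjusted p = 0.0479, edgeR), as it was with the LPS input libraries alone (0.41, adjusted p = 0.0225, edgeR). On its 3'UTR peak Il6 had 1265 and 783 against 1088 and 1326, and the groups overlapped (0.23, SE 0.17, adjusted p = 0.431, edgeR). Its call turned on 1 WT library: the log2 fold change was 0.61 (adjusted p = 0.0370, edgeR) without WT LPS replicate 1 and −0.07 (adjusted p = 0.846, edgeR) without replicate 2.

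Of the 10 peaks of the MAP kinase feedback and mRNA decay list 7 were called, all higher, on Ier3, Pde4b and Phlda1. Ier3, an early stress response gene, had 424 and 328 CPM in WT and 608 and 706 in Adap-/- PMs at its stop codon (0.79, SE 0.12, adjusted p = 0.000282, edgeR). The peaks of Dusp16 and Spred1 were not called. All peaks of the listed genes, LPS-raised or not, summed to 9518 and 8776 normalised CPM in the WT LPS replicates and to 7369 and 7213 in the Adap-/- ones, the other direction. Counts of this and the next lists stand beside 12.4% called higher and 23.1% lower over all 761 LPS-raised peaks. Over all peaks tested the shares were 4.97% and 9.18%, and no list was tested against either. Effector genes had 10 higher and 13 lower peaks of 44. Ptgs2 was higher on all 3 of its peaks (5125 and 4279 CPM against 7850 and 10408 at the stop codon, 0.95, SE 0.14, adjusted p = 0.000124, edgeR), whereas Nos2 was lower on 7 of 10 and the protease inhibitor gene Serpina3g on 5 of 5. Of 36 receptor peaks 5 were higher and 13 lower. Pdpn, which encodes the CLEC-2 ligand podoplanin, had 1234 and 1323 CPM in WT against 323 and 325 in Adap-/- PMs (−1.99, SE 0.11, adjusted p = 5.22e-10, edgeR), while the adenosine receptor gene Adora2b had 24.0 and 18.3 against 52.0 and 62.6 (1.41, SE 0.21, adjusted p = 0.000151, edgeR). Of 22 pattern recognition and cell death peaks 6 were higher, among them all 3 of the inflammasome sensor Nlrp3, and 1 lower. NF-κB regulators were mostly level, with 1 higher and 1 lower of 26, and of 26 transcription factor peaks 2 were higher and 7 lower, 3 of these on Pou3f1.

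By size of the change, Cxcl3 stood among low-abundance peaks at the top in Adap-/- PMs. Zfp811, a zinc finger gene, had 2.85 and 4.68 CPM in WT and 18.8 and 16.2 in Adap-/- PMs (2.22, SE 0.43, adjusted p = 0.00160, edgeR), and Mki67, the proliferation marker, had 14.6 and 12.2 against 35.8 and 61.2 (1.82, SE 0.27, adjusted p = 0.000195, edgeR). Gimap9 (1.61) and Phlda1 (1.53, shared with ENSMUSG00000100113) followed. The lowest after Pdpn were Pou3f1 (59.8 and 32.8 CPM against 13.6 and 9.74, −1.98), BC147527 (−1.66), Ifit3b (−1.65) and Aldh1b1, a mitochondrial aldehyde dehydrogenase gene (−1.50). Gimap9 and BC147527 have under 25 CPM in every culture and lost the call when 1 LPS culture was left out, BC147527 for each of the 4 and Gimap9 for all but Adap-/- replicate 1. The macrophage marker Fcgr1, the high-affinity IgG receptor and itself interferon-inducible, was also an LPS-raised peak and was lower (358 and 495 CPM against 191 and 156, −1.30, SE 0.17, adjusted p = 5.19e-05, edgeR), beside summed macrophage markers of 10577 and 10261 CPM in WT and 8850 and 9230 in Adap-/- PMs, and the part of this in the ISG values was not tested.

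**Figure D5:**
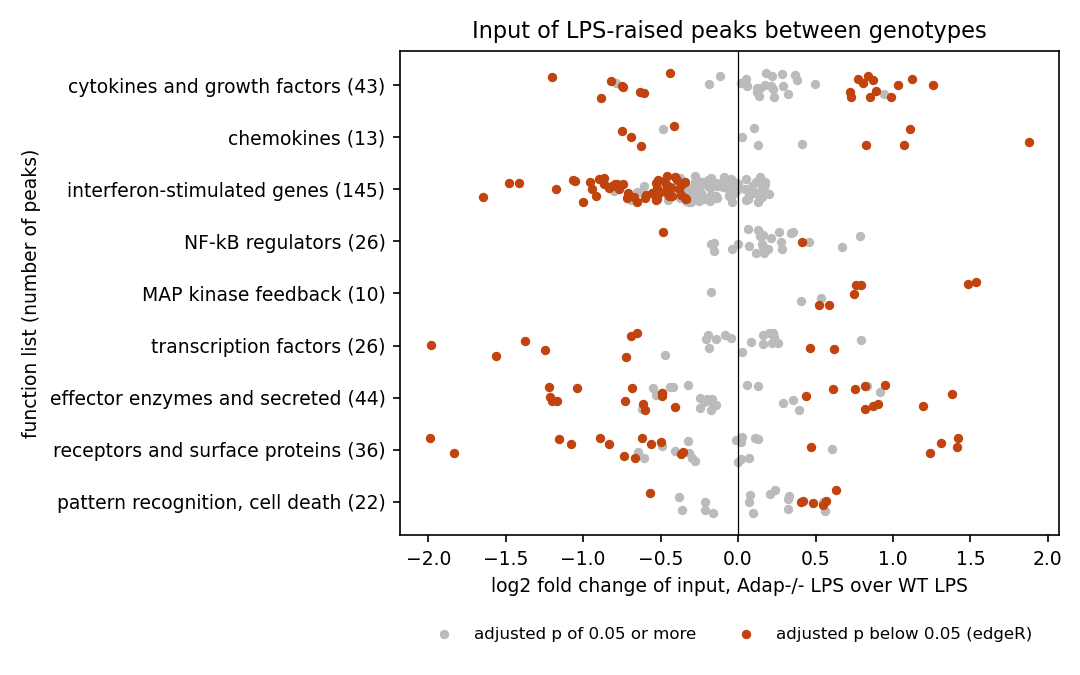
Log2 fold change of input, Adap-/- over WT after LPS, for each LPS-raised peak of 9 function lists (number of peaks in parentheses), orange where the adjusted p from edgeR was below 0.05. Of the ISG peaks 52 of 145 are called, all to the left of 0, while called cytokine (12 higher, 8 lower) and chemokine peaks (4 and 4) lie on both sides. The 7 called peaks of the MAP kinase feedback and mRNA decay list, on Ier3, Pde4b and Phlda1, lie to the right.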

How the data were processed

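Fragmented total RNA of each culture was sequenced as input and after m6A immunoprecipitation. The authors deposited 1 table of read counts on merged peaks. The submitters' processing notes name Bowtie2 2.2.8, MACS2 2.1.2, DiffBind 2.8 and build GRCm39, and strand handling is not given in the sources used here. Coordinates are the table's. Its 8094 lines were reduced to 7069 distinct peaks, and 61 symbols that the table gives to several genes were taken from its description column. Counts were fitted with edgeR 4.0.16 in R 4.3.3 (TMM, filterByExpr with minimum count 10 and total 15, quasi-likelihood test, Benjamini-Hochberg adjustment over all peaks), with DESeq2 1.42.0 as an alternative. IP-to-input ratios used TMM-scaled CPM over 16 libraries with 0.5 reads added, and normalised CPM are TMM-scaled. Names followed a rule (most input, extreme ratios, called peaks, most input per function list, genes the study names, widest within-gene range, threshold edges). Serpina3g, Irf7, Slc39a14, Lif, Tnfsf10, Csf1, Ccl2, Ccl7 and Rnf213 were chosen after their values were seen. The peaks, lists and tests were chosen with earlier results of these data known. In simulated data, 174 of 199 changed peaks were called with 10 false calls for input (6748 tested) and 30 of 200 with 0 for the ratio (7057 tested). Simulated replicates of a group shared their mean, and all peaks shared the common spread. Mock IP replicates that stand apart were thus not copied, and detection on the LPS-raised peaks may be lower. Promoter letters come from RefSeq (GRCm38.p6). Sequences of the peaks themselves were not analysed here. Alternatives were other scalings, filters, tools, library subsets, a replicate block and leaving out each LPS culture.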

Additional observations from a re-analysis of the deposited data

Results flagged for a closer look

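In mock IP libraries, whose ratios no comparison between genotypes above uses, LPS-raised peaks took 21.6% of reads in WT mock replicate 1 and 21.2% in Adap-/- mock replicate 2. The highest mock input library had 7.66%, and the remaining mock IP libraries had 5.09% and 7.14%. Summed over the 761 peaks, the 2 libraries reached at least 18.0% of the mean LPS input level, against 3.80% and 5.03% in the other mock IP libraries and 36.1% to 38.7% in the LPS IP libraries. On the 84 peaks that LPS lowered more than 16-fold they had 57.8% and 44.2% of the mean mock input level, and the other mock IP libraries had 67.9% and 55.0%. The cause was not tested.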

How the results depend on the processing

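The median log2 ratio of −0.76 was 0.00197 with raw library totals, −0.32 with TMM within IP and within input, −0.72 in Adap-/- cultures for peaks chosen on WT input, −0.64 for peaks up to 1000 bases, and −0.78 to −0.75 without 1 LPS culture. The rule gave 1383 peaks with TMM-scaled CPM, and 742 to 772 without 1 culture. IP over input: higher 89 and lower 493 with the LPS libraries only, 81 and 491 without the 2 mock cultures, 84 and 494 with DESeq2 on the LPS libraries, 96 and 507 with a replicate block there, 99 higher with TMM within IP and within input, and 23 to 35 higher and 77 to 158 lower without 1 culture. Input between genotypes: 54 to 92 higher and 90 to 128 lower without 1 culture. The genotype difference in ratio was called on 9 peaks by DESeq2 on the LPS libraries and on 0 under every other alternative; at the unadjusted thresholds the count of 0 became 1 with DESeq2, 1 with RLE scaling, 6 with the replicate block, 19 with the LPS libraries, 17 without the 2 mock cultures, 20 with DESeq2 on the LPS libraries, 21 with a block there and 0 to 2 without 1 culture.

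IP and input of 1 culture share a replicate number, and each IP-to-input ratio above was taken within such a pair. The main fits did not use the pairing. Replicate differences in IP and input correlated with r of 0.139, 0.0852, −0.113 and 0.0796 (WT LPS, Adap-/- LPS, WT mock, Adap-/- mock). Among the LPS-raised peaks the replicate block moved IP over input to 50 higher and 312 lower, and input between genotypes to 91 and 163.

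Small log2 differences in ratio between genotypes changed sign. Il1b (stop codon) ranged from −0.00207 to 0.50 without 1 LPS culture, negative without Adap-/- replicate 2. Il1b (start codon) moved to −0.0169 with DESeq2, −0.0137 with RLE, −0.0126 with at least 10 input reads, −0.0185 with the replicate block, −0.00390 with TMM within IP and within input, −0.0126 with the LPS libraries and a block, and −0.136 to 0.13 without 1 culture. Without 1 culture Il6 ranged from −0.41 to 0.0932 (start codon) and from −0.122 to 0.61 (stop codon) in ratio, and in input from −0.0373 to 0.69 (stop codon) and from −0.0721 to 0.61 (3'UTR), negative without WT replicate 2. DESeq2 removed the input calls of Cxcl1, Il12a, Ptges and Cd274 (adjusted p = 0.109, 0.249, 0.103 and 0.0605). DESeq2 and the block on the LPS libraries, the fits without the 2 mock cultures and the limit of 1000 bases were chosen after seeing the data. The cause of these shifts was not tested. With 2 replicates, ratios of single peaks are imprecise.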
